A study of Homo sapiens with 9 samples.

Results

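The genes described here are the 5 DNA-binding subunits of nuclear factor kappa B (NF-kB) and 4 genes that restrain or follow the pathway. The subunits are NFKB1 (p105/p50), NFKB2 (p100/p52), RELA (p65), RELB and REL (c-Rel), and the others are NFKBIA, NFKBIE, TNFAIP3 and BIRC3. Members were chosen by gene name: every probe whose name in the array files is 1 of these 9 symbols was taken. This gave 10 of the 58201 probes on the array, in 19 spots, because RELA has 2 probes and the single NFKBIA probe is printed in 10 spots. All 9 genes passed the detection filter and are among the 20107 genes tested.

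RNA came from T47D, an established human luminal breast cancer cell line, in 3 stable forms with 3 single-color arrays for each. T47D-PA6 expresses full-length PTH-AS, a long noncoding RNA encoded beside the parathyroid hormone gene, T47D-PA5 expresses an incomplete PTH-AS, and T47D-VC1 received the empty vector. All were made with the pTARGET expression vector and G418 selection, and each form is 1 selected line, so a difference between forms cannot be told apart from a difference between the selected lines. The sources do not say whether the 3 arrays of a line come from separate cultures, so the p-values measure the spread between these arrays, which may be technical.

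NF-kB proteins are kept in the cytoplasm by inhibitors of the I kappa B family. A signal from a tumor necrosis factor (TNF) receptor or a Toll-like receptor activates a kinase complex that has the inhibitor degraded, and dimers such as p50-RelA then enter the nucleus. In a slower, noncanonical branch, p100 is cut to p52, which pairs with RelB. Several of the genes switched on by NF-kB encode its own brakes, among them NFKBIA, NFKBIE and TNFAIP3, so their RNA is often read as a trace of pathway activity.

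Each array carries 60901 spots that are not controls, and from 44.0% to 48.0% of its probes passed as well above background. No spot was saturated. Replicate 1 of every line was read in an earlier scan run on slide 1, and the other 6 arrays in a later run on slides 2 and 3, with both later T47D-PA6 arrays on slide 3. Over all genes, replicate 1 lay a median of 0.25 (T47D-VC1), 0.21 (T47D-PA5) and 0.26 (T47D-PA6) log2 units from the mean of the later 2 arrays, against 0.11, 0.085 and 0.087 between the later 2 arrays themselves. All 9 luminal epithelial markers examined were well above background on every one of the 9 arrays. Of these, PGR fell in T47D-PA6, by 1.07 log2 units against T47D-VC1 and 0.69 against T47D-PA5 (limma, adjusted p = 0.0072 and 0.0367). Among markers of other cell types, CD3E, DCN and PECAM1 were above it on 0 arrays and PDGFRB on 2. PTPRC (signal 13.3 to 27.4), CD14 (41.0 to 218), COL1A1 (235 to 364) and CDH5 (21.5 to 44.1) were above it on all 9. In log2 units, T47D-PA6 stood 1.80 over T47D-VC1 for CD14 (limma, adjusted p = 0.0082) and −0.50 for COL1A1 (limma, adjusted p = 0.0198). Their part in the results that follow was not tested.

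Promoter sequences, from 250 bases before to 50 after the annotated start, were found for 7 of the 9 genes in RefSeq (GRCh38.p14), while RELB and NFKBIE had no entry. The NF-kB consensus, searched by its 10 letters on both strands, matched in 5 of the 7, namely NFKB1, REL, NFKBIA, TNFAIP3 and BIRC3, and in none of the windows of NFKB2 and RELA. It matched in 10.8% of the 27305 promoters in the table. The 4 below are shown because they belong to the 3 feedback genes with an entry and to REL, the subunit whose T47D-PA5 arrays lay above both other lines. They are written 5′ to 3′ on the gene's own strand, and capitals mark the bases that matched the consensus.
NFKBIA, chr14:35404700-35404999, minus strand: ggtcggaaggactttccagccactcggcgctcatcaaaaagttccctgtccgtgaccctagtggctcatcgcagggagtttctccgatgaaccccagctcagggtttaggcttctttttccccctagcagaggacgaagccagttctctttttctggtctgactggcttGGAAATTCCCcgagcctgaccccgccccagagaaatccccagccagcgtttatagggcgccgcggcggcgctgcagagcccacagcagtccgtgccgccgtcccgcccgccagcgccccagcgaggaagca
TNFAIP3, chr6:137867009-137867308, plus strand: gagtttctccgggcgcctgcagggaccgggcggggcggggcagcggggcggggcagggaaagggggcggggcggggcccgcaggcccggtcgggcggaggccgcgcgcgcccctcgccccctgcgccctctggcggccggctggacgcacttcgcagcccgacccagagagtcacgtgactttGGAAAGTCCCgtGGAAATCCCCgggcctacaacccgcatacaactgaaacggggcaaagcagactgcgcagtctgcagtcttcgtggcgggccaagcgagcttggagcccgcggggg
BIRC3, chr11:102317234-102317533, plus strand: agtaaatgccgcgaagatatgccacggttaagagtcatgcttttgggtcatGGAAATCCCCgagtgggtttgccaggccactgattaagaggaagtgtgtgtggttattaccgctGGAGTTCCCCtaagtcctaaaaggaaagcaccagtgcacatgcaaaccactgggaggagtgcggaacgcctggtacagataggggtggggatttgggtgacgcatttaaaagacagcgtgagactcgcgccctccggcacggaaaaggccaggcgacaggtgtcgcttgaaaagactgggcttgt
REL, chr2:60881324-60881623, plus strand: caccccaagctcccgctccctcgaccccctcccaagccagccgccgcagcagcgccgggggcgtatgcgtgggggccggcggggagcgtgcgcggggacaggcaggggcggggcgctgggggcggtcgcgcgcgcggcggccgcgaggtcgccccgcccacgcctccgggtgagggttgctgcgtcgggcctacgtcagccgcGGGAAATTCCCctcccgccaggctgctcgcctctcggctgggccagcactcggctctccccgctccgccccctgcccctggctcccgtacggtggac

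The NFKBIA match begins 81 bases before the start. TNFAIP3 has matches that begin 67 and 55 bases before it, separated by 2 bases. BIRC3 has matches at 199 and 135 bases. The REL matches, at 47 and 46 bases, overlap each other, and the NFKB1 match begins at 49 bases. The interferon gamma-activated element TTCNNNGAA matched in 1 of the 7, RELA (7.88% of all promoters), and the core of the interferon-stimulated response element matched in the same gene (3.65%). A match of letters is a description and shows no binding.

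The probes themselves are 60 bases long, and the array files place them on hg19. RELB is read at chr19:45541385-45541444, NFKB1 at chr4:103537856-103537915, NFKBIA at chr14:35870788-35870847, NFKBIE at chr6:44226558-44226617, TNFAIP3 at chr6:138203679-138203738 and BIRC3 at chr11:102208356-102208415. RELA is read at chr11:65421651-65421710 and, by its dimmer probe, at chr11:65421986-65422045. Which part of each transcript these positions fall in was not assigned, because no hg19 annotation was used here. The probe sequences of NFKB2 and REL are shown as examples of what was hybridized. The NFKB2 probe spans 177 bases of genome (chr10:104161053-104161229), more than its own length, so that it joins separate stretches, whereas the REL probe is continuous (chr2:61149596-61149655).
NFKB2 probe: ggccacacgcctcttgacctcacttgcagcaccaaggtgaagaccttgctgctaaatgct
REL probe: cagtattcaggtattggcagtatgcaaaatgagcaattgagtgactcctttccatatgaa

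Of the 5 subunits, RELB was the one that differed between lines in the test across all genes. Its signal was 1039, 918 and 903 on the 3 T47D-VC1 arrays, 1133, 1241 and 1183 in T47D-PA5, and 1276, 1376 and 1542 in T47D-PA6. All 3 T47D-PA6 arrays lay above all of T47D-PA5, and these above all of T47D-VC1. RELB, the partner of p52 in the noncanonical branch, rose in T47D-PA6 over T47D-VC1 by 0.55 ± 0.11 log2 units (SE), a 1.47-fold change with a 95% interval of 1.23 to 1.74 (limma, adjusted p = 0.0179). T47D-PA5 stood between, 0.32 above T47D-VC1 (95% interval 0.07 to 0.56, limma adjusted p = 0.204) and 0.23 below T47D-PA6 (95% interval of T47D-PA6 over T47D-PA5 −0.01 to 0.48, limma adjusted p = 0.223). Neither step passed the threshold on its own.

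The RELB difference between T47D-PA6 and T47D-VC1 was 0.30 in the earlier scan run and 0.68 in the later one, and 0.69 within slide 3. The call was lost when only these lines entered the fit (limma, adjusted p = 0.0541), under the unpaired test that the methods name (adjusted p = 0.0890) and when T47D-PA6 replicate 2 or 3 or T47D-VC1 replicate 2 or 3 was left out (limma, adjusted p = 0.0628, 0.0764, 0.0619 and 0.0780), with the difference between 0.48 and 0.56 in these 4 cases.

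RELA encodes p65, the main transactivating subunit of the canonical dimer. Its brighter probe gave 2228, 2465 and 2288 in T47D-VC1, 2347, 2726 and 2667 in T47D-PA5, and 2276, 2410 and 2666 in T47D-PA6. The ranges of the 3 lines overlap, and the differences were 0.07, 0.15 and −0.07 (T47D-PA6 over T47D-VC1, T47D-PA5 over T47D-VC1, T47D-PA6 over T47D-PA5, the order kept below). Its second probe gave 0.11, 0.14 and −0.03, so the probes differed by at most 0.043 log2 units in any comparison. For T47D-PA6 over T47D-VC1 the 95% interval of the brighter probe ran from −0.17 to 0.32 on the log2 scale.

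NFKB1 encodes the p105 precursor of p50. It was read at 508, 540 and 487 in T47D-VC1, 579, 502 and 491 in T47D-PA5, and 470, 479 and 450 in T47D-PA6. Every T47D-PA6 array was below every array of the other lines, but the gaps were small, with differences of −0.13 to T47D-VC1 (95% interval −0.36 to 0.09, limma adjusted p = 0.446) and −0.16 to T47D-PA5 (95% interval −0.39 to 0.06, adjusted p = 0.359). NFKB2, the source of p52, gave 171, 244 and 195 in T47D-VC1, 189, 214 and 213 in T47D-PA5, and 175, 217 and 207 in T47D-PA6. Its line means lay within 0.05 log2 units of each other, with overlapping arrays throughout and a 95% interval of −0.36 to 0.32 for T47D-PA6 over T47D-VC1.

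REL, whose product c-Rel is best known from lymphocytes, had another order from RELB. It was read at 177, 192 and 171 in T47D-VC1, 215, 201 and 229 in T47D-PA5, and 157, 176 and 176 in T47D-PA6. The T47D-PA5 arrays were the highest and did not overlap either of the other lines, which overlapped each other. REL was lower in T47D-PA6 than in T47D-PA5 by −0.34 ± 0.10 (SE; 95% interval −0.57 to −0.11), the lowest adjusted p of any of the 9 genes in that comparison, which missed the threshold (limma, adjusted p = 0.0731). Over T47D-VC1, T47D-PA5 stood at 0.26 (95% interval 0.03 to 0.49, limma adjusted p = 0.269). The T47D-PA6 minus T47D-PA5 difference of REL was −0.45 in the earlier scan run and −0.28 in the later one.

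**Figure D1:**
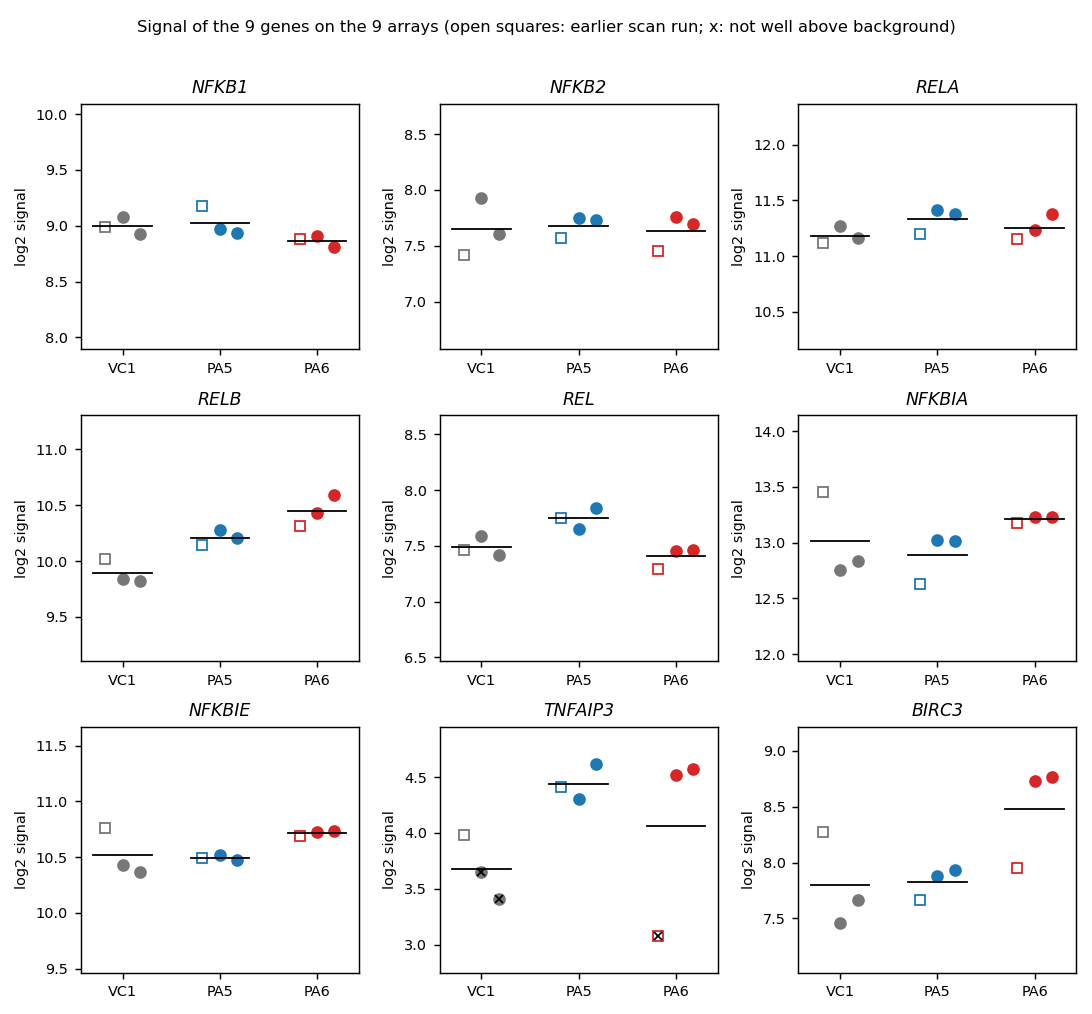
Quantile-normalized log2 signal of the 9 genes on each array, with 3 arrays for each of T47D-VC1 (gray), T47D-PA5 (blue) and T47D-PA6 (red); open squares are the earlier scan run, filled circles the later one, a cross marks an array not well above background, and the bar is the line's mean. Every panel spans 2.2 log2 units. RELB steps up from T47D-VC1 to T47D-PA6 without overlap. The earlier T47D-VC1 array is the highest of its line for RELB, NFKBIA, NFKBIE, TNFAIP3 and BIRC3.

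None of the 4 inhibitor and feedback genes passed the threshold in any comparison when all 9 arrays entered the fit, and in T47D-PA6 over T47D-VC1 all 4 changed sign between the scan runs. NFKBIA encodes I kappa B alpha, the fast inhibitor that is resynthesized after each round of activation. It was read at 11184, 6910 and 7303 in T47D-VC1, 6338, 8327 and 8252 in T47D-PA5, and 9231, 9602 and 9619 in T47D-PA6. The earlier T47D-VC1 array was the highest of all 9 and the earlier T47D-PA5 array the lowest, while the T47D-PA6 arrays lay close together, with an SD of 0.034 log2 units against 0.38 in T47D-VC1. The differences were 0.20 ± 0.19, −0.12 ± 0.19 and 0.32 ± 0.19 (SE; limma, adjusted p = 0.567, 0.819 and 0.346), and the T47D-PA6 arrays were all above those of T47D-PA5.

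NFKBIE, which encodes the related inhibitor I kappa B epsilon, gave 1735, 1377 and 1320 in T47D-VC1, 1439, 1465 and 1422 in T47D-PA5, and 1650, 1688 and 1704 in T47D-PA6. Again the earlier T47D-VC1 array exceeded every other array, and T47D-PA6 was above T47D-PA5 without overlap. The differences were 0.20, −0.02 and 0.22, each with an SE of 0.12 (limma, adjusted p = 0.325, 0.948 and 0.282). Under the unpaired test that the methods name, on the same values, T47D-PA6 over T47D-PA5 passed (adjusted p = 0.0279); its SDs on these arrays were 0.024 and 0.022. Without T47D-VC1 replicate 1, T47D-PA6 over T47D-VC1 was 0.32 and passed (limma, adjusted p = 0.0458).

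BIRC3 encodes cIAP2, a ubiquitin ligase of the TNF receptor complex and a long-known NF-kB target. Its signal was 309, 176 and 203 in T47D-VC1, 203, 235 and 245 in T47D-PA5, and 248, 425 and 436 in T47D-PA6. Both later T47D-PA6 arrays were above all others, but the earlier T47D-PA6 array lay below the earlier T47D-VC1 array. Over T47D-VC1, T47D-PA6 stood at 0.69 ± 0.27 (SE; 95% interval 0.08 to 1.30, limma adjusted p = 0.143), and over T47D-PA5 at 0.66 (95% interval 0.05 to 1.27, limma adjusted p = 0.170). Without the earlier T47D-PA6 array these were 0.95 and 0.92 and passed (limma, adjusted p = 0.0345 and 0.0362).

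TNFAIP3 encodes A20, a ubiquitin-editing enzyme that shuts the pathway off upstream of the kinases, and it was close to the detection limit. Its signal was 15.8, 12.5 and 10.6 in T47D-VC1, 21.3, 19.8 and 24.5 in T47D-PA5, and 8.5, 22.9 and 23.9 in T47D-PA6. It was well above background on 1 of 3 T47D-VC1 arrays, 3 of 3 in T47D-PA5 and 2 of 3 in T47D-PA6, the earlier T47D-PA6 array being the one that was not. It passed the detection filter through T47D-PA5, the line where it is highest, so its tests against T47D-PA5 are not independent of that choice. All T47D-PA5 arrays were above all T47D-VC1 arrays, by 0.76 ± 0.37 on average (SE; 95% interval −0.08 to 1.60, limma adjusted p = 0.376). T47D-PA6 stood at 0.38 over T47D-VC1 (limma, adjusted p = 0.569), and at 0.87 without its earlier array (limma, adjusted p = 0.0202). T47D-PA6 over T47D-PA5 was −0.38 (limma, adjusted p = 0.578), and turned to 0.10 without that array.

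**Figure D2:**
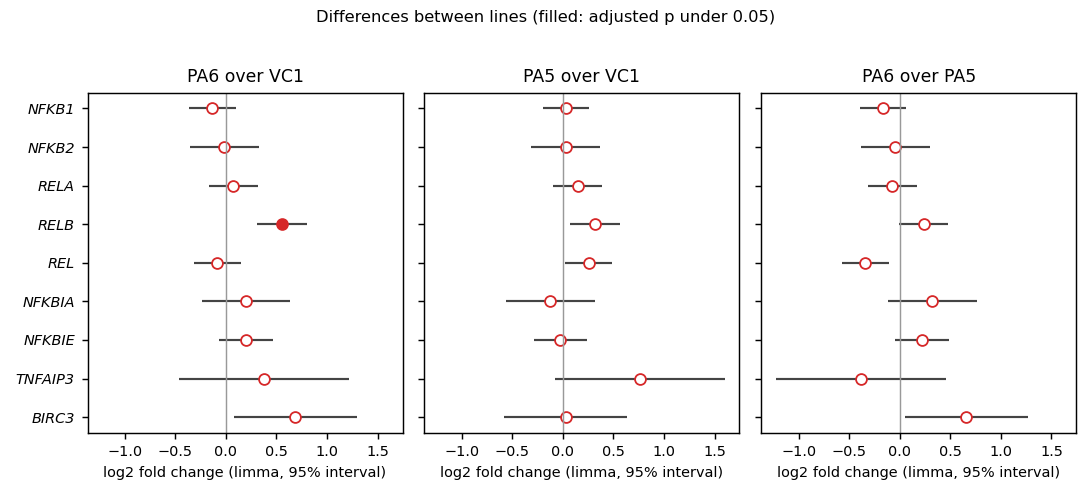
Log2 fold change of each of the 9 genes in the 3 comparisons, from the limma fit over 9 arrays, with 95% intervals; a filled point passed an adjusted p of 0.05. RELB in T47D-PA6 over T47D-VC1, at 0.55, is the filled point, and the widest intervals are those of TNFAIP3 and BIRC3.

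Counted together, 1 of the 9 genes was called in T47D-PA6 over T47D-VC1 and 0 in each of the other 2 comparisons. Of all genes tested, 10.0% were called in T47D-PA6 over T47D-VC1, 1.67% in T47D-PA5 over T47D-VC1 and 9.71% in T47D-PA6 over T47D-PA5. Counts among 9 genes are too small to be set apart from these shares. At an unadjusted p under 0.05 in limma, 2 members passed in each comparison, RELB and BIRC3, RELB and REL, and REL and BIRC3 in the order above, where 26.6%, 15.6% and 24.9% of all genes did. With the unpaired test and its adjustment, 0, 0 and 1 of the 9 passed, where 2.15%, 0.194% and 3.93% of all genes did. The median difference of the 9 genes was 0.20, 0.03 and −0.05, beside −0.03, −0.03 and −0.0009 over all genes tested. By the ratio to T47D-VC1 that the methods use, above 2 or below 0.6, 0 of the 9 were called in T47D-PA6 or T47D-PA5, where 7.64% and 3.92% of all genes were. All line ratios of the members lay between 0.766 and 1.70. Both ends are those of TNFAIP3, which was close to the detection limit. The other members lay between 0.789 (REL) and 1.61 (BIRC3).

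Lines did not overlap for 2 members in T47D-PA6 over T47D-VC1 (RELB higher, NFKB1 lower), where 30.9% of all genes did not overlap. They did not overlap for 3 in T47D-PA5 over T47D-VC1 (RELB, REL and TNFAIP3, all higher), beside 23.3% of all genes. TNFAIP3 had passed the detection filter through T47D-PA5, so its place in that count is not independent of the filter. In T47D-PA6 over T47D-PA5 there were 6 (RELB, NFKBIA, NFKBIE and BIRC3 higher, NFKB1 and REL lower; 32.7% of all genes). The first and second of these comparisons share the T47D-VC1 arrays, and the third uses the same T47D-PA6 and T47D-PA5 arrays as they do. Among the feedback genes, then, 3 of 4 separated the 2 PTH-AS lines from each other and 0 of 4 separated T47D-PA6 from the vector control. For NFKBIA, NFKBIE and BIRC3 the earlier T47D-VC1 array reached into or above the T47D-PA6 range. For TNFAIP3 every T47D-VC1 array, at 15.8, 12.5 and 10.6, lay inside the T47D-PA6 range of 8.5 to 23.9.

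The scan runs gave opposite pictures for the feedback genes. In the earlier run, T47D-PA6 minus T47D-VC1 was −0.28 for NFKBIA, −0.07 for NFKBIE, −0.90 for TNFAIP3 and −0.32 for BIRC3. In the later run it was 0.44, 0.33, 1.02 and 1.19. For TNFAIP3 the earlier T47D-PA6 array and both later T47D-VC1 arrays were not well above background, so that its sizes are uncertain. All 4 changed sign, whereas among the subunits 1 of 5 did, NFKB2, with values of 0.03 and −0.04. Over all genes 35.4% had opposite signs in the 2 runs. The T47D-VC1 array of the earlier run was the highest of its line for each of the 4 genes, and also for RELB. Its distance from the later T47D-VC1 arrays was 0.71 for BIRC3 and 0.65 for NFKBIA, sizes reached or passed by 10.9% and 13.1% of all genes. For TNFAIP3 and NFKBIE it was 0.45 and 0.36 (25.4% and 34.3%). In T47D-PA6 the earlier array lay 1.47 from the later ones for TNFAIP3 (2.02% of all genes at least as far) and 0.80 for BIRC3 (9.73%). For NFKBIA and NFKBIE it lay 0.058 and 0.040 from them (87.5% and 91.1%).

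For T47D-PA5 minus T47D-VC1, 3 of the 4 feedback genes changed sign between the runs. NFKBIA went from −0.82 to 0.22, NFKBIE from −0.27 to 0.10 and BIRC3 from −0.61 to 0.35, while TNFAIP3 stayed above 0 (0.43 and 0.93). Over all genes 44.7% changed sign in this comparison. Both contrasts use the same earlier T47D-VC1 array, so they are not separate observations of it. T47D-PA6 minus T47D-PA5, which does not use that array, kept its sign for NFKBIA (0.54 and 0.21), NFKBIE (0.20 and 0.23) and BIRC3 (0.29 and 0.84) and changed it for TNFAIP3 (−1.33 and 0.09), where 35.8% of all genes changed.

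**Figure D3:**
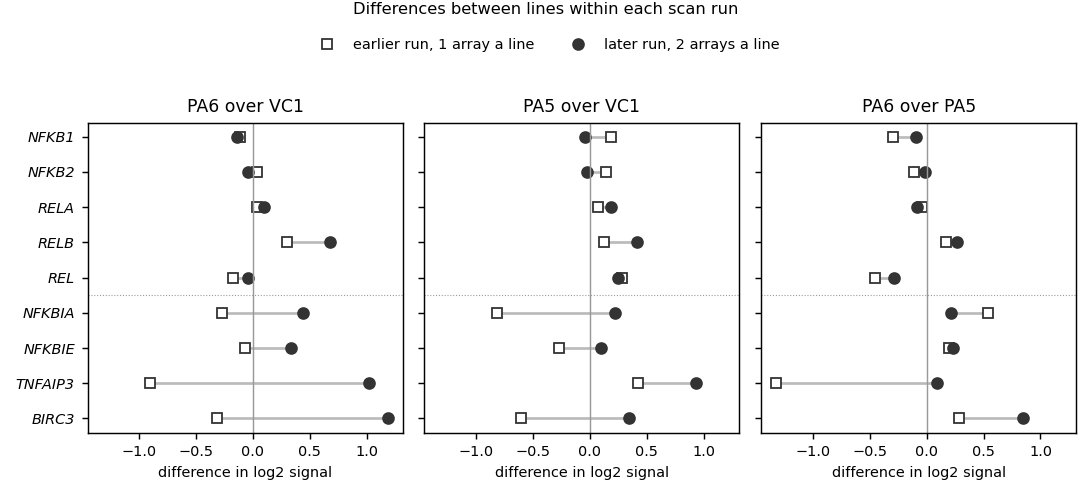
Difference in log2 signal between lines for each of the 9 genes, within the earlier scan run (open squares, 1 array a line) and the later run (filled circles, mean of 2 arrays a line); subunits are above the dotted line and inhibitor and feedback genes below it. For T47D-PA6 over T47D-VC1, all 4 genes below the dotted line cross 0, BIRC3 from −0.32 to 1.19.

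With the later run alone, 2 arrays a line, 5 of the 9 genes were called in T47D-PA6 over T47D-VC1, 3 in T47D-PA5 over T47D-VC1 and 3 in T47D-PA6 over T47D-PA5, where 37.1%, 21.4% and 35.5% of all genes were called. Over T47D-VC1, T47D-PA6 had higher BIRC3 (1.19 ± 0.086, SE), RELB (0.68), NFKBIA (0.44) and NFKBIE (0.33), with adjusted p-values of limma of 0.0011, 0.0035, 0.0054 and 0.0114. Those higher in T47D-PA5 than in T47D-VC1 were RELB (0.41) and BIRC3 (0.35), at adjusted p-values of limma of 0.0256 and 0.0485. The other gene counted in both of these comparisons was TNFAIP3, for which neither later T47D-VC1 array was well above background. Only a bound holds for it, at least 1.88-fold higher in T47D-PA6 and at least 1.77-fold higher in T47D-PA5 (limma, adjusted p = 0.0054 and 0.0141). TNFAIP3 had passed the detection filter through T47D-PA5, so its T47D-PA5 call is not independent of that filter. BIRC3 (0.84), NFKBIE (0.23) and NFKBIA (0.21) stood above T47D-PA5 in the T47D-PA6 arrays, at adjusted p-values of limma of 0.0026, 0.0322 and 0.0428. RELA, NFKB1, NFKB2 and REL were called in none of the 3 comparisons of the later run. A run of 1 array a line gives no test, so whether the earlier and later runs differ for a given gene was not tested.

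The wider pathway was described with 77 other genes, of which 58 were tested and 15 were not well above background on any array. All 10 kinase genes, all 11 other inhibitors and all 16 adaptors and ligases were tested, against 6 of 11 receptors, 2 of 9 ligands and 13 of 20 other targets. Several targets often used to read out NF-kB were not well above background on any array, among them the cytokine and chemokine genes IL6, CXCL8, IL1A and IL1B, the adhesion gene VCAM1 and the cyclooxygenase gene PTGS2, and the same held for TLR2 and TLR4. In T47D-PA6 over T47D-VC1 9 of the 58 were called, 8 higher and 1 lower (median 0.04), where 4.69% of all genes were called higher and 5.34% lower. The 8 higher include TLR3, which passed the detection filter through T47D-PA5 and T47D-PA6, so its place in that count is not independent of the filter. In T47D-PA5 over T47D-VC1 3 were called, all higher (median 0.001, with 1.37% of all genes higher and 0.298% lower). In T47D-PA6 over T47D-PA5 8 were called, 5 higher and 3 lower (median 0.04, with 3.65% of all genes higher and 6.06% lower). The 3 lower include CXCL1, which passed the filter through T47D-PA5, so its place is not independent of the filter either. Leaving out T47D-PA6 replicate 3 brought the first count to 4 and the second to 1. Calls over all genes then fell from 10.0% to 3.49% and from 1.67% to 1.01%. The second count also fell to 0 without T47D-PA5 replicate 2 or 3 or T47D-VC1 replicate 3 (0.587%, 0.492% and 0.507% of all genes). It fell to 1 without T47D-VC1 replicate 2 (0.821%). The third fell to 3 without replicate 2 or 3 of T47D-PA5 (4.21% and 3.85%) or of T47D-PA6 (3.61% each).

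Among targets, ICAM1, an adhesion molecule induced by TNF and by interferon gamma, rose stepwise through the lines. Its signal was 220, 193 and 166 in T47D-VC1, 302, 336 and 320 in T47D-PA5, and 526, 527 and 551 in T47D-PA6. No line overlapped another, and every step passed, at 1.48 ± 0.12 for T47D-PA6 over T47D-VC1, 0.73 for T47D-PA5 over T47D-VC1 and 0.75 for T47D-PA6 over T47D-PA5 (SE 0.12 for each; limma, adjusted p = 0.0005, 0.0224 and 0.0079). TNFAIP2, named for its induction by TNF, rose by 0.92 in T47D-PA6 over T47D-VC1 (limma, adjusted p = 0.0113). It was read at 4558, 4158 and 4867 in T47D-VC1, 6089, 8082 and 7961 in T47D-PA5, and 7064, 9528 and 9297 in T47D-PA6. The T47D-PA5 arrays also lay above every T47D-VC1 array and overlapped T47D-PA6, and TNFAIP2 passed in neither comparison with T47D-PA5. The chemokine gene CXCL1 was well above background in T47D-PA5 alone, at 23.7, 17.1 and 20.9. Its T47D-VC1 signals, at 11.4, 17.7 and 5.9, overlapped these. It was at least 1.76-fold lower in T47D-PA6 than in T47D-PA5, a bound because the T47D-PA6 arrays were not well above background (limma, adjusted p = 0.0449). It had passed the detection filter through T47D-PA5, the line where it is high, so this call is not independent of that choice.

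Upstream of the subunits, the adaptor of Toll-like and interleukin-1 receptors MYD88 rose in T47D-PA6 by 0.67 over T47D-VC1 and by 0.40 over T47D-PA5 (limma, adjusted p = 0.0046 and 0.0336). RNF31, the catalytic subunit of the linear ubiquitin ligase, rose in T47D-PA6 by 0.69 over T47D-VC1 (limma, adjusted p = 0.0110). Its 0.28 over T47D-PA5 did not pass (limma, adjusted p = 0.179), and T47D-PA5 stood 0.40 over T47D-VC1 (limma, adjusted p = 0.148). The partner RBCK1 rose in T47D-PA6 by 0.49 over T47D-PA5 (limma, adjusted p = 0.0464). Over T47D-VC1, RBCK1 stood at 0.25 in T47D-PA6 and −0.24 in T47D-PA5, and neither passed (limma, adjusted p = 0.245 and 0.433). The TNF receptor gene TNFRSF1A rose in T47D-PA6 by 0.54 and 0.46 over the other lines (limma, adjusted p = 0.0113 and 0.0208). TLR3, a sensor of double-stranded RNA, was read at 26.9, 10.6 and 7.4 in T47D-VC1, with 1 of the 3 arrays well above background, at 26.8, 49.3 and 38.6 in T47D-PA5, and at 79.3, 47.2 and 48.6 in T47D-PA6. T47D-PA6 lay above every T47D-VC1 array, by 2.14 ± 0.46 (SE; limma, adjusted p = 0.0243), a size that is uncertain because the other 2 T47D-VC1 arrays were not well above background. T47D-PA5 overlapped both lines, and its 1.53 over T47D-VC1 did not pass (limma, adjusted p = 0.152). TLR3 had passed the detection filter through T47D-PA5 and T47D-PA6, where it is higher. Its tests against T47D-VC1 are therefore not independent of that filter.

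TNFSF12 encodes TWEAK, a ligand that activates the noncanonical branch. It was read at 822, 817 and 681 in T47D-VC1, 834, 920 and 932 in T47D-PA5, and 1463, 1481 and 1459 in T47D-PA6. T47D-PA6 stood apart from both other lines, by 0.93 and 0.71 (limma, adjusted p = 0.0019 and 0.0066). TRAF5, an adaptor of TNF receptors, had its highest signal in T47D-PA5, 0.89 over T47D-VC1, and stood at −0.81 in T47D-PA6 over T47D-PA5 (limma, adjusted p = 0.0438 and 0.0225). OTUD7B, a deubiquitinase that restrains the noncanonical branch, rose in both PTH-AS lines over T47D-VC1, by 0.48 in T47D-PA6 and 0.65 in T47D-PA5 (limma, adjusted p = 0.0215 and 0.0187).

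The pathway gene that fell in T47D-PA6 against both other lines was IKBKE, which encodes an I kappa B kinase-related kinase that acts in antiviral signaling. Its signal was 42.4, 52.7 and 47.2 in T47D-VC1, 66.7, 52.4 and 52.4 in T47D-PA5, and 20.7, 24.8 and 19.9 in T47D-PA6. T47D-PA6 was lower than every array of the other lines, at −1.12 to T47D-VC1 and −1.39 to T47D-PA5 (limma, adjusted p = 0.0032 and 0.0022). The classical kinase subunits CHUK, IKBKB and IKBKG, which phosphorylate I kappa B, stood at −0.05, −0.05 and −0.17 in T47D-PA6 over T47D-VC1, and passed in no comparison.

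**Figure D4:**
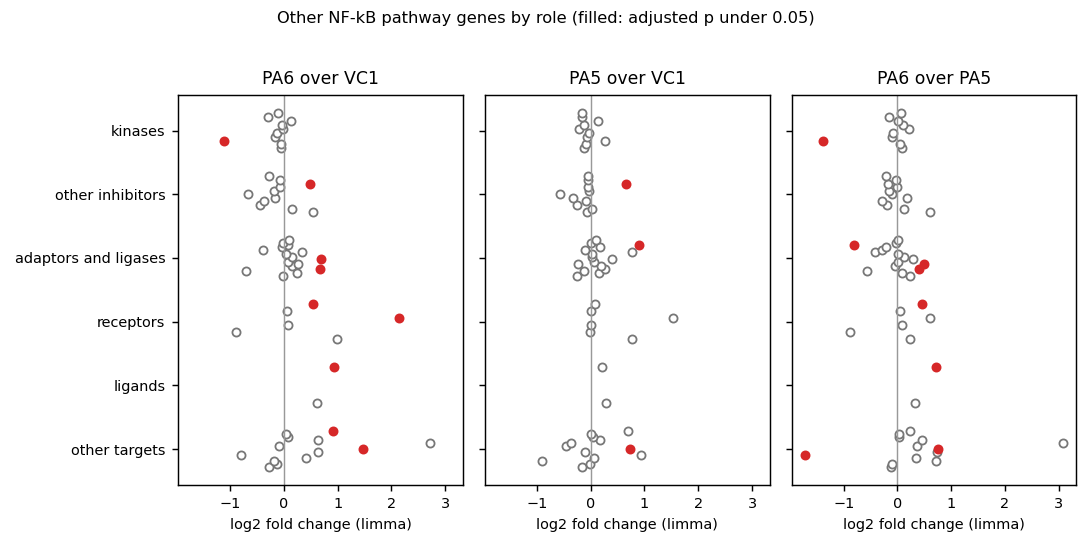
Log2 fold changes of the 58 tested pathway genes outside the 9 described, by role, in the 3 comparisons; 1 point is 1 gene, and a filled point passed an adjusted p of 0.05. The filled point among the kinases is IKBKE, and ICAM1 is filled among the other targets in all 3 panels.

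The genes whose pattern over the 9 arrays lay nearest to that of RELB, after each gene was centered on its own mean, were ROM1, ZBTB47 and RBKS, with root mean square differences of 0.062, 0.078 and 0.079 log2 units. Their T47D-PA6 over T47D-VC1 differences were 0.47, 0.57 and 0.49 (limma, adjusted p = 0.0567, 0.0063 and 0.0261). These were picked for likeness to RELB, so the values are a description.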

How the data were processed

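RNA of 9 T47D samples, 3 each of T47D-VC1, T47D-PA5 and T47D-PA6, was hybridized to single-color SurePrint G3 v3 arrays. The authors deposited each array's spot intensity from Feature Extraction, background-subtracted and not normalized between arrays (version 10.7.1.1 in the file headers, 9.5.1.1 in the submitters' processing notes), and a quantile-normalized table of intensities, used as an alternative. Flags that mark outliers and spots well above background are other columns of the deposited files. Control spots and 46 to 117 outlier spots per array were left out. Replicate spots were averaged as log2 values and quantile-normalized as in the study's methods. Probes well above background on all 3 arrays of at least 1 line were tested (26172 of 58201); 65 probe values were left missing, 0 of them of the 9 genes. A gene was read from its tested probe of highest mean. RefSeq gave names to 31127 probes through the symbol, 3343 through an accession and 496 through a synonym, and 23235 kept the name in the files.

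Testing used limma 3.58.1 (lmFit, eBayes; R 4.3.3), with 1 fit over 9 arrays (6 residual degrees of freedom), with Benjamini-Hochberg adjustment over 20107 genes and a threshold of 0.05. The fit was tested on simulated data. Precision is limited by the number of arrays, 3 a line. All 9 genes and their probes are reported, with pathway genes called in any comparison, up to 6 a role by size of change, and the 3 genes nearest to a called member. CHUK, IKBKB, IKBKG and the undetected pathway genes were named outside this rule, after their values were seen. The result for 1 marker gene is not reported here. The genes and the lists were chosen with earlier results of these data known.

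The main fit used no replicate block. Replicate numbers were treated as pairs in an alternative alone, with the replicate number as a block. The deviations of T47D-PA6 arrays correlated with those of same-numbered arrays at 0.34, 0.13 and 0.24 (T47D-VC1) and 0.27, 0.17 and 0.17 (T47D-PA5). The scan runs and slides are those named in the file headers. Alternatives were another normalization, background correction and filter, blocks, each array left out, the later scan run alone and other tests.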

Additional observations from a re-analysis of the deposited data

How the results depend on the processing

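RELB in T47D-PA6 over T47D-VC1 was higher in all 23 alternatives, by 0.30 to 0.68, and passed in 15 of the 21 that were tested, with adjusted p-values of limma or the unpaired test from 0.0035 to 0.0890. With the replicate number as a block it stood at 0.55 (limma, adjusted p = 0.0291), and the pairing changed no call of the 9 genes. The pairing of T47D-PA5 with T47D-VC1 was not borne out in every number (correlations of 0.21, 0.099 and 0.12). There the block called 0 of the 9 members and 2 of the 58 tested pathway genes, where 2.44% of all genes were called.

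Among the 9 members, the count called in T47D-PA6 over T47D-VC1 was 0 when only the lines compared entered the fit (5.70% of all genes). It was 0 by the ratio definition (7.64%), 0 by the unpaired test (2.15%) and 5 in the later scan run alone (37.1%). Leaving out 1 array gave 0 to 3, where 3.49% to 13.8% of all genes were called. In T47D-PA6 over T47D-PA5 the count was 1 by the unpaired test (3.93% of all genes) and 3 in the later run (35.5%). With an array left out it was 0 to 1 (3.61% to 14.7% of all genes), the 1 being BIRC3 without T47D-PA6 replicate 1. For T47D-PA5 against T47D-VC1 the count was 3 in the later run (21.4% of all genes). It was 0 with any array left out (0.492% to 3.09%). For the pathway list, the later run gave 25, 13 and 19 calls, the unpaired test 4, 0 and 4, the fit of the lines compared 0 in T47D-PA5 over T47D-VC1, and no filter on dim probes and the ratio definition 5 each in T47D-PA6 over T47D-PA5; leaving out 1 array gave 4 to 13, 0 to 4 and 3 to 10.

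Signs also turned, in differences that did not pass with all 9 arrays. In the earlier run, which allows no test, T47D-PA6 over T47D-VC1 was −0.32 for BIRC3, −0.28 for NFKBIA, −0.073 for NFKBIE and −0.90 for TNFAIP3, against 0.69, 0.20, 0.20 and 0.38 with all arrays. In the earlier run NFKB2 was 0.033 in T47D-PA6 over T47D-VC1 and BIRC3 was −0.61 in T47D-PA5 over T47D-VC1. In the later run T47D-PA5 over T47D-VC1 was −0.047 for NFKB1, −0.029 for NFKB2, 0.22 for NFKBIA and 0.10 for NFKBIE, and T47D-PA6 over T47D-PA5 was 0.088 for TNFAIP3. With slide as a block NFKB2 was 0.032 in T47D-PA6 over T47D-VC1 and 0.0028 in T47D-PA6 over T47D-PA5, and under normexp correction NFKBIE was 0.0094 in T47D-PA5 over T47D-VC1. With 1 array left out, T47D-PA5 over T47D-VC1 ran from −0.14 to 0.27 for BIRC3, −0.043 to 0.075 for NFKB1, −0.087 to 0.17 for NFKB2, −0.25 to 0.094 for NFKBIA and −0.10 to 0.10 for NFKBIE. NFKB2 ran from −0.13 to 0.12 in T47D-PA6 over T47D-VC1 and −0.11 to 0.046 in T47D-PA6 over T47D-PA5, and TNFAIP3 from −0.64 to 0.10 in the latter. TNFAIP3 has no value when probes must be well above background on all 9 arrays. The cause of these shifts was not tested. The later run and the fits with 1 array left out also rest on fewer arrays.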
